A study of Mus musculus with 12 samples.

Results

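Pre-selection CD4+CD8+ double-positive (DP) thymocytes of newborn Bcl11bm/m mice were compared with those of newborn wild-type mice by RNA-seq. The comparison uses 8 of the 12 libraries of the series, 3 titled HM1 to HM3 (Bcl11bm/m) and 5 titled WT1 to WT5 (wild-type), all on the C57BL/6 strain and all described as sorted CD24hi TCRβlo cells. The Bcl11bm allele carries a frameshift that truncates the last zinc finger of the protein, and mice with 2 copies of it die as neonates. The other 4 libraries, cKO1 to cKO4, came from DP thymocytes of Bcl11bfl/fl:Cd4-Cre mice, whose age the labels do not give, and in which the Cd4 promoter drives Cre so that Bcl11b is deleted from about the DP stage onward. They serve here only to show which changes of Bcl11bm/m thymocytes they did not share. The text descriptions call the 5 wild-type libraries Bcl11bm/m and the 4 conditional-deletion libraries Bcl11b+/+, against their titles, and the titles and the overall design were followed. The extraction text in the labels describes a sort of CD4- CD8- NKT cells for every library, against the sample source and the study's methods, which give DP thymocytes. The 12 defining markers of pre-selection DP cells summed to 6652 to 8900 FPKM (fragments per kilobase of transcript, scaled to the mapped fragments of the library) in wild-type and to 4989 to 5530 FPKM in Bcl11bm/m libraries. Nothing in the labels says that replicates came from separate mice, so the p-values measure the spread between these libraries.

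Bcl11b is a zinc finger transcription factor that T cell progenitors switch on when they commit to the T lineage. DP thymocytes carry both coreceptors and a newly assembled T cell receptor, divide little once they become small, and wait for a signal from self-peptide on MHC. Those that receive it downregulate the DP programme, become CD4+ or CD8+ single-positive cells, acquire receptors for survival and exit, and leave the thymus. Before the DP stage, progenitors lose stem cell genes, pass a Notch-dependent stage with CD25 (Il2ra) and the pre-T cell receptor (Ptcra), and proliferate at β-selection.

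The Bcl11b transcript itself (mm9 chr12:109148613-109241812) was listed at 132, 286, 292, 158 and 223 FPKM in the wild-type replicates 1 to 5 and at 430, 434 and 482 FPKM in the Bcl11bm/m replicates 1 to 3. All 3 Bcl11bm/m libraries were above all wild-type libraries, by 1.10 on the log2(FPKM + 1) scale (two-sided exact permutation p = 0.0357, where the smallest p possible is 0.0179). A gene total does not tell the frameshift allele from the wild-type allele, so this value does not check the genotype. Depth was estimated from the steps between low FPKM values of genes with 1 transcript, of which 48.2% to 52.7% lay within 0.1 of a whole number of fragments. The estimates were 3600000 to 6200000 fragments in wild-type, 2510000 to 3830000 in Bcl11bm/m (lowest in replicate 1) and 9860000 to 42010000 in the Bcl11bfl/fl:Cd4-Cre group, so the newborn groups overlap and lie below the third, and the part of this gap in the comparisons was not tested. The newborn libraries had between 10327 and 10720 genes at 1 FPKM or more. Wild-type replicate 1 sat lower than the rest of its group, with a median difference of -0.30 over all genes on the log2 scale. Wild-type replicate 4 sat 0.21 higher than its group, and Bcl11bm/m replicate 1 sat 0.11 higher than its group. Across genes, which are not independent replicates, library pairs within wild-type correlated at a median r of 0.966, pairs within Bcl11bm/m at 0.964 and pairs between the genotypes at 0.904, and the highest pair between genotypes (0.930) was below the lowest within wild-type (0.939). Bcl11bm/m replicate 1 also had the highest sums of 5 of 7 lists of markers of other cells. Its 36 myeloid markers summed to 246 FPKM, against 100 and 71.3 FPKM in replicates 2 and 3 and 27.3 to 53.9 FPKM in wild-type. Its 11 MHC class II genes summed to 318 FPKM, against 113, 78.1 and 23.6 to 71 FPKM, and its 8 defining B cell markers to 39.6 FPKM, against 9.44, 9.37 and 14.6 to 21.9 FPKM. Its 10 defining NK markers summed to 411 FPKM, nearly all from Gzma (409 FPKM), against 210, 223 and 16.5 to 67.4 FPKM. The NK marker Klrb1c had another order, at 0.301 FPKM in replicate 1, 6.94 and 5.41 FPKM in replicates 2 and 3 and 0 to 0.605 FPKM in wild-type. Its 22 thymic stroma markers summed to 173 FPKM, mostly from Pecam1 (162 FPKM), against 157, 151 and 43.7 to 71.6 FPKM, and Pdgfrb was at 0.234 to 1.67 FPKM in wild-type and at 5.96, 3.95 and 2.27 FPKM in Bcl11bm/m libraries (1.58, adjusted p = 0.00662). Of the 22, 6 were at 0 in every wild-type and 8 in every Bcl11bm/m library. In the myeloid, MHC class II, NK and stroma sums every Bcl11bm/m library was above every wild-type library. H2-Oa gave 34.9 FPKM of the class II sum in replicate 3, against 7.48 to 20.2 FPKM in wild-type. H2-DMb1, Ciita and H2-Eb2 were also above wild-type there, at 1.97 FPKM or less. H2-Aa, H2-Ab1, H2-Eb1 and Cd74 (3.55, 4.29, 2.58 and 13.5 FPKM in replicate 3) lay within their wild-type ranges. The sums of 39 B cell markers (1733 FPKM) and of 19 erythroid markers (179 FPKM) in Bcl11bm/m replicate 1 lay within the wild-type range. The first was mostly Rag1 (971 to 1564 FPKM in wild-type, 980 FPKM here) and the second mostly Epb4.1 (106 to 158 and 134 FPKM). For the 21 B cell markers averaging at least 1 FPKM over the 12 libraries, the mean log2(FPKM + 1) did not overlap between genotypes. It was 4.18, 3.37 and 3.16 in Bcl11bm/m replicates 1 to 3 and at most 2.64 in wild-type. Of the 21, 6 rose and 1 fell at an adjusted p under 0.05. Xist, the RNA of the inactive X, was at 101 and 73 FPKM in the wild-type replicates 2 and 3 and at 84.7 FPKM in Bcl11bm/m replicate 1. The Y-linked Ddx3y was at 13.6 FPKM in each of the wild-type replicates 4 and 5 and at 18.6 and 17.6 FPKM in the Bcl11bm/m replicates 2 and 3. Wild-type replicate 1 had neither (0.0527 FPKM of Xist, Ddx3y listed at 0). The part of such cells in the results below was not tested unless a value is given beside the result.

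The expression of 10598 genes whose mean over the 12 libraries reached 1 FPKM was compared. Of these, 1979 (18.7%) had an adjusted p-value under 0.05 by limma, with 1130 (10.7%) higher and 849 (8.01%) lower in Bcl11bm/m thymocytes. Changes of more than 1 on the log2 scale were seen in 631 genes that rose (5.95%) and 360 that fell (3.4%). All values of one genotype were above all values of the other in 2742 genes (25.9%), and 1889 genes (17.8%) met both conditions. The direction of the calls depended on expression level. Among genes with a mean of 1 to 5 FPKM, 17.4% rose and 7.51% fell, with a median log2 difference of 0.12. Among the 249 genes at 200 FPKM or more, 3.21% rose and 11.2% fell, with a median of -0.24. Thus the share of genes that rose was highest at low expression, though 437 of the 1130 increases were at 5 to 20 FPKM, and the highly expressed genes fell more often than they rose. The filter admitted 300 of the 10598 genes with a wild-type mean under 1 FPKM, and such genes can rise but hardly fall. Their part in the share at low expression was not tested. Without wild-type replicate 1 the calls were 1206 higher and 1365 lower, and without Bcl11bm/m replicate 2 they were 792 and 471. Between the libraries with Y-linked RNA alone (wild-type replicates 4 and 5 and Bcl11bm/m replicates 2 and 3) they were 969 and 1176.

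Switching from near silence was almost entirely in one direction. In 43 genes every wild-type library was under 1 FPKM and every Bcl11bm/m library at 5 FPKM or more, and in 3 genes (2210010C17Rik, Errfi1 and Pmepa1, the last named after its values were seen) the reverse held. Genes of the first kind included the cytokine receptor Il7r, the Notch targets Hes1 and Heyl, the oxysterol receptor Gpr183, the integrin Itga9, the cyclic nucleotide phosphodiesterase Pde2a and the semaphorin Sema4c. Errfi1, a feedback inhibitor of EGF receptor signalling, was at 7.55, 5.51, 8.28, 7.71 and 8.35 FPKM in the wild-type replicates 1 to 5 and at 0.389, 0.43 and 0.839 FPKM in the Bcl11bm/m replicates 1 to 3.

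**Figure D1:**
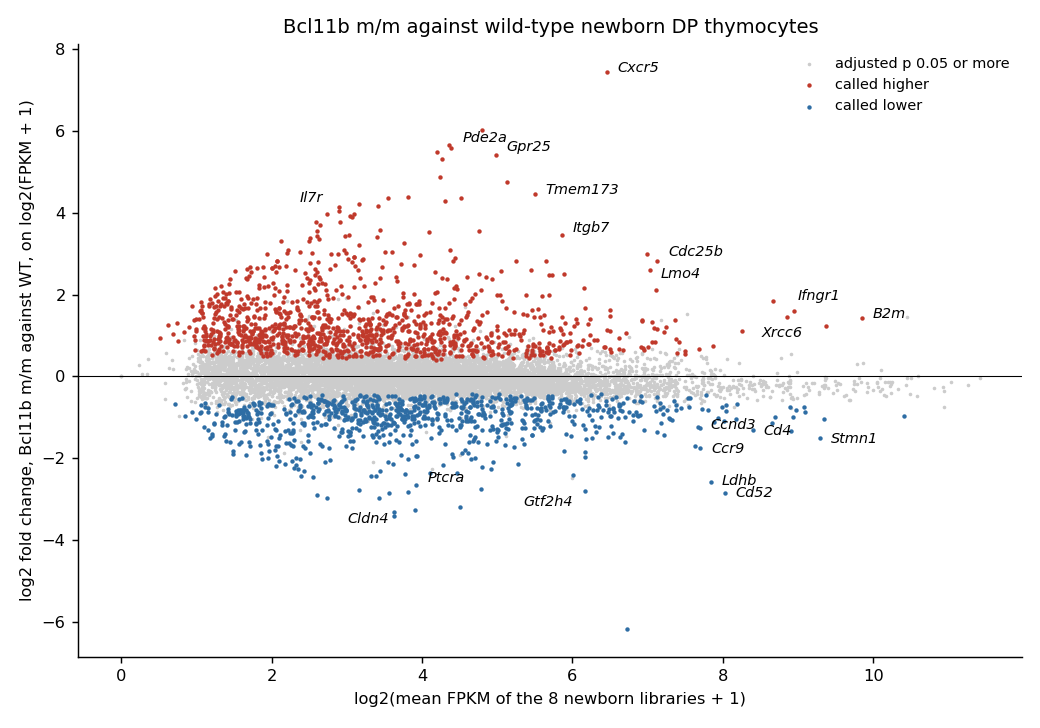
Each point is 1 of 10598 genes, with log2(mean FPKM of the 8 newborn libraries + 1) on the x axis and the log2 fold change of Bcl11bm/m against wild-type on log2(FPKM + 1) on the y axis. Red points (1130) were higher and blue points (849) lower at an adjusted p under 0.05. The increases reach further up at low and middle expression, and on the right side Ldhb, Cd52, Ccr9 and Cd4 lie below 0 while B2m and Ifngr1 lie above it. The lowest point (-6.17) is LOC100302567, which was picked out after its value was seen, is listed at 0 in all Bcl11bm/m libraries and also at 0 in wild-type replicate 3, and its adjusted p was 0.0533 to 0.0584 when any Bcl11bm/m library was left out.

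Part of the programme of the DP stage itself was lower in Bcl11bm/m thymocytes. Of 35 genes characteristic of DP thymocytes, 14 fell (40%, against 8.01% of all genes tested), 1 rose and 20 did not pass the test. The gene that rose was Tcf12 (by 0.85, named after its values were seen, with an adjusted p of 0.0743 without Bcl11bm/m replicate 1). The median log2 fold change of the 35 genes was -0.32, against -0.02 over all genes. Genes at 50 to 200 FPKM had a median of -0.15, and those at 200 FPKM or more had -0.24. The mean log2(FPKM + 1) of the 35 genes was between 7.30 and 7.66 in wild-type libraries and between 6.99 and 7.03 in Bcl11bm/m libraries, so the groups did not overlap. In bulk RNA, fewer cells of a type and less RNA per cell cannot be told apart. Without wild-type replicate 1 and Bcl11bm/m replicate 1, 16 of these genes fell and 2 rose.

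Ccr9 (mm9 chr9:123587557-123691089), the receptor for the thymic chemokine CCL25, was at 251, 278, 303, 297 and 278 FPKM in the wild type and at 65.4, 93.9 and 91.8 FPKM in the Bcl11bm/m replicates, a fall of 1.75 (log2 fold change -1.75, standard error 0.16, adjusted p = 4.86e-05). Ptcra (mm9 chr17:46893176-46900542), which encodes the pre-T cell receptor alpha chain, was at 29.3, 36.8, 40.8, 44.5 and 39.5 FPKM in the wild type and at 12.2, 5.34 and 5.9 FPKM in the Bcl11bm/m replicates (log2 fold change -2.22, adjusted p = 0.000114). Ets2 (mm9 chr16:95923682-95942658), an ETS family transcription factor, was at 209 to 300 FPKM in wild-type libraries and at 113, 68.6 and 67.7 FPKM in Bcl11bm/m libraries (-1.70, adjusted p = 0.000231). For each of these genes the groups were apart in every library. The germ cell gene Tdrd5, a Tudor domain gene that DP thymocytes also express, was at 34.3, 42.3, 45.4, 41.9 and 43.6 FPKM in the wild type and at 3.38, 11.5 and 11.5 FPKM in the Bcl11bm/m replicates, a log2 fold change of -2.26 with an adjusted p of 0.000549. Cd24a, the surface protein used for the sort, fell by 1.15 (adjusted p = 0.00193), from 127 to 220 FPKM in wild-type to 72.8 to 87.5 FPKM in Bcl11bm/m libraries.

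Of the coreceptor genes Cd4 and Cd8b1 fell, and Cd8a did not pass the test. Cd4 (mm9 chr6:124814710-124838239) was at 527, 574, 651, 589 and 649 FPKM in the wild type and at 318, 298 and 281 FPKM in the Bcl11bm/m replicates (-0.99, adjusted p = 0.00187). Cd8b1 was at 1280 to 2099 FPKM in wild-type and 781 to 933 FPKM in Bcl11bm/m libraries (-0.96, adjusted p = 0.0136, or 0.0758 and 0.0664 without Bcl11bm/m replicates 2 and 3). Cd8a was at 704, 967, 1006, 1054 and 886 FPKM in the wild type and at 812, 698 and 697 FPKM in the Bcl11bm/m replicates, which overlap (-0.32, adjusted p = 0.336). Of the 2 recombinase genes Rag2 fell and Rag1 did not pass the test, and the difference between them was not tested. Rag2 was at 107, 112, 136, 117 and 90.2 FPKM in the wild type and at 76.6, 51.2 and 56.4 FPKM in the Bcl11bm/m replicates (-0.87, adjusted p = 0.00614). Rag1 was at 1183, 1383, 1564, 971 and 1384 FPKM and at 980, 899 and 874 FPKM, which overlap (-0.48, adjusted p = 0.171). Rag1, Rag2 and Ccr9 share exon positions with other annotated genes, and since the strandedness of the libraries is uncertain, their reads cannot be fully assigned. The same holds, mostly through genes of the opposite strand, for Bcl2, Egr1, Notch1, Foxo1, Ptger4, Itga4, Plcg1, Jun, Ccnf, Ube2c, Cdc25b, Slfn5, Irf7, Xrcc6, Cd52 and Tspan2 below.

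Many genes of mature thymocytes and thymic exit rose in cells sorted as pre-selection. Of 46 such genes that passed the expression filter, 27 rose (58.7%, against 10.7% of all genes tested) and 3 fell (6.52%, against 8.01%). The other 16 did not pass the test, and the median log2 fold change of the 46 was 0.93. The filter admitted 6 of them with a wild-type mean under 1 FPKM. Their mean log2(FPKM + 1) was between 3.20 and 3.73 in wild-type and between 4.46 and 4.89 in Bcl11bm/m libraries. Without wild-type replicate 1 and Bcl11bm/m replicate 1, 25 rose and 5 fell, as 5 fell without wild-type replicate 1 alone. Without the filter 18 of 54 rose and 3 fell (33.3% and 5.56%, against 4.5% and 2.39% over all genes).

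Klf2 (mm9 chr8:74842932-74845555), the transcription factor of the exit programme, was at 1.07, 2.6, 2.33, 1.66 and 1.43 FPKM in the wild type and at 31.9, 11.6 and 10.1 FPKM in the Bcl11bm/m replicates (log2 fold change 2.59, standard error 0.34, adjusted p = 0.000408). S1pr1, the sphingosine-1-phosphate receptor that draws mature cells into the blood, was listed at 0.0508, 0.0572, 0, 0 and 0 FPKM in the wild type and at 3.49, 1.03 and 0.752 FPKM in the Bcl11bm/m replicates (adjusted p = 0.00726). In both genes Bcl11bm/m replicate 1 was the highest of the newborn libraries, and replicates 2 and 3 were also above every wild-type library.

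Il7r (mm9 chr15:9435916-9459631), the IL-7 receptor alpha chain that DP thymocytes normally lack, was listed at 0.0119, 0.0537, 0.0833, 0.0885 and 0 FPKM in the wild type and at 25.8, 13.3 and 12.2 FPKM in the Bcl11bm/m replicates (4.04, adjusted p = 1.26e-06). Bcl2, its anti-apoptotic counterpart in mature cells, was at 1.86 to 3.19 FPKM in wild-type and 4.61 to 6.29 FPKM in Bcl11bm/m libraries (0.88, adjusted p = 0.00827). Of 8 genes of the GIMAP cluster, GTPases of lymphocyte survival, 5 rose (62.5%, against 10.7% of all genes tested) and none fell at the threshold, with a median of 1.07. Gimap4 (mm9 chr6:48634548-48642061) was at 0.705, 1.15, 1.3, 1.52 and 1.14 FPKM in the wild type and at 37, 19.7 and 13.7 FPKM in the Bcl11bm/m replicates (3.40, adjusted p = 1.71e-05). Itgb7 (mm9 chr15:102046426-102062366), an integrin chain of gut homing, was at 6.05, 25.7, 28.4, 6.81 and 4.32 FPKM in the wild type and at 141, 123 and 121 FPKM in the Bcl11bm/m replicates (3.45, standard error 0.53, adjusted p = 0.00124). Wild-type libraries spread widely for Itgb7, but the lowest Bcl11bm/m library was far above the highest of them. Ly6c1, a surface antigen whose reads may be shared with its close paralogs, was at 1.46 to 3.78 FPKM in wild-type and 76.7 to 93.1 FPKM in Bcl11bm/m libraries (4.75, adjusted p = 4.31e-07).

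The 3 members that fell (Nr4a1, Egr1 and Egr2) are known targets of T cell receptor signalling. Nr4a1 (mm9 chr15:101097277-101105223), an immediate-early nuclear receptor, was at 15.2, 17.2, 20.6, 26.5 and 21.2 FPKM in the wild type and at 4.5, 4.69 and 4.05 FPKM in the Bcl11bm/m replicates (-1.94, adjusted p = 4.75e-05). Egr1 fell by 1.27 (adjusted p = 0.00321) and Egr2 by 1.12 (adjusted p = 0.00494), and in both genes the groups did not overlap. Cd5, a negative regulator whose level follows T cell receptor signal strength, was at 66.3, 74.4, 86.7, 148 and 140 FPKM in the wild type and at 38.8, 40.2 and 32.8 FPKM in the Bcl11bm/m replicates (-1.37, adjusted p = 0.00471). So 27 of the 46 listed genes rose, while Nr4a1, Egr1, Egr2 and Cd5 fell. Immediate-early genes as a list, given below, had members in both directions.

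**Figure D2:**
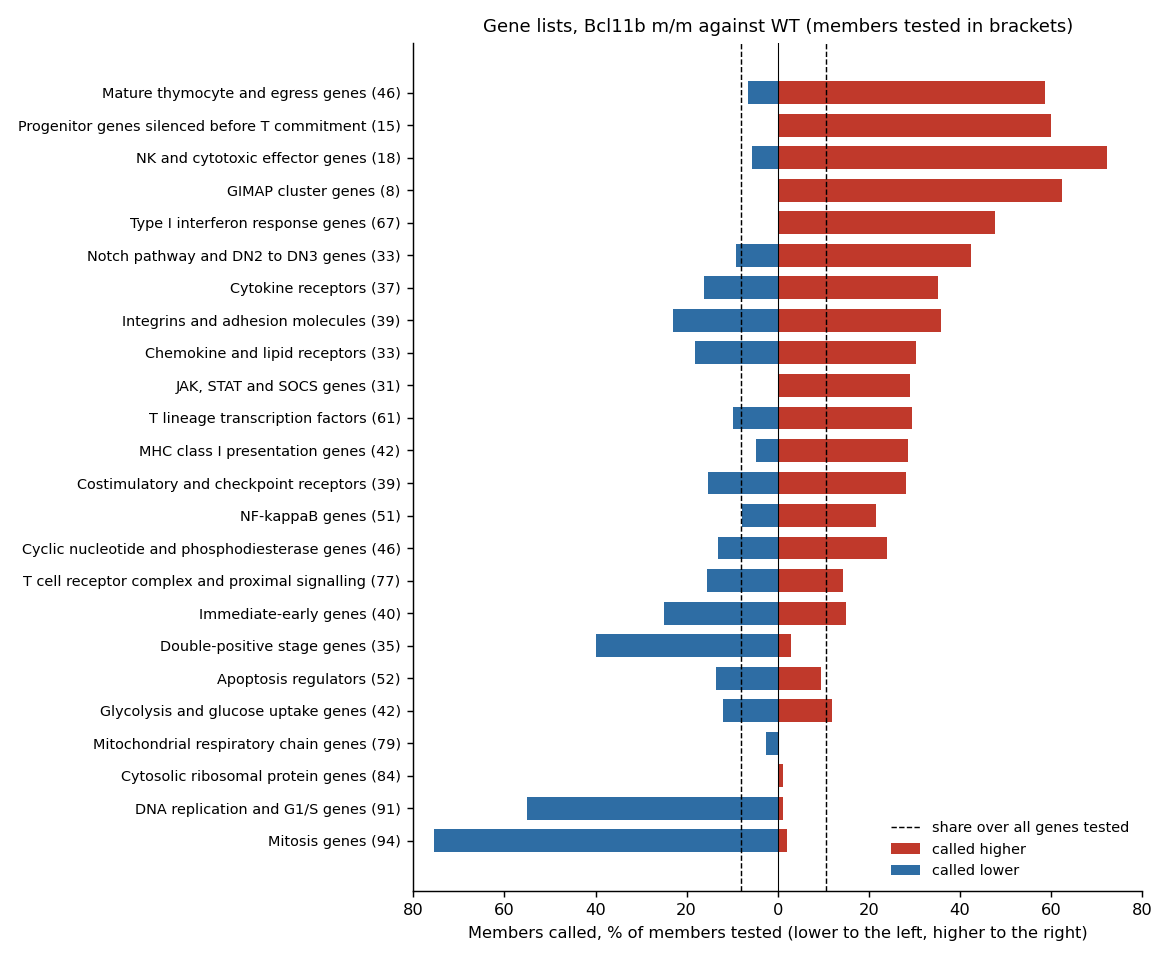
For 24 gene lists, bars show the share of tested members (number in brackets) that were lower (blue, to the left) or higher (red, to the right) in Bcl11bm/m thymocytes with an adjusted p under 0.05, and dashed lines mark the share over all genes tested (8.01% lower, 10.7% higher). Mitosis, replication and DP stage genes extend to the left, and mature thymocyte, progenitor, NK, GIMAP and interferon genes to the right, while ribosomal protein and respiratory chain genes have almost no calls.

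Some genes of early progenitors, silenced before T cell commitment, also rose. Of 42 such genes listed, 15 passed the expression filter, 5 of them with a wild-type mean under 1 FPKM. Of these 15 genes 9 rose (60%, against 10.7% of all genes tested) and 6 did not pass the test (median 1.52). Without the filter 8 of the 42 rose and 1 fell (19% and 2.38%, against 4.5% and 2.39% over all genes), with a median of 0.25. Because the filter can admit a gene through the group in which it is high, the count describes the genes that passed and not the whole list. Their mean log2(FPKM + 1) was between 1.63 and 1.93 in wild-type and was 3.57, 3.14 and 2.99 in Bcl11bm/m replicates 1 to 3.

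Lyl1 (mm9 chr8:87225356-87228614), a helix-loop-helix factor of stem and progenitor cells, was at 0.27, 1.21, 0.627, 1.07 and 0.514 FPKM in the wild type and at 17.2, 9.4 and 7.09 FPKM in the Bcl11bm/m replicates (2.76, adjusted p = 7.35e-05). It shares exon positions with Nfix on the opposite strand. The progenitor surface receptor Cd93 (mm9 chr2:148262376-148269299) was at 1.03, 3.36, 2.52, 0.647 and 0.64 FPKM in the wild type and at 20.2, 16.1 and 15.8 FPKM in the Bcl11bm/m replicates (2.91, adjusted p = 0.000155). Both cytokine receptors of multipotent progenitors rose to low levels. Flt3 was at 0 to 0.218 FPKM in the wild type and at 2.86, 4.42 and 5.81 FPKM in the Bcl11bm/m replicates (2.26, adjusted p = 3.78e-05), and Kit at 0.246 to 0.563 FPKM and at 3.09, 2.98 and 2.95 FPKM (1.52, adjusted p = 7.37e-05). Kit was nearly equal in the 3 Bcl11bm/m libraries and Flt3 lowest in replicate 1, while the mean of the list, Lyl1 and Cd93 were highest in replicate 1, as were the myeloid and MHC class II sums. Il9r (mm9 chr11:32087541-32100279), the IL-9 receptor, was at 0.349 to 1.46 FPKM in the wild type and at 19, 12.2 and 11.5 FPKM in the Bcl11bm/m replicates (3.0, adjusted p = 1.16e-05).

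The Notch pathway is most active before the DP stage. Its genes were listed together with other genes of late double-negative cells. Of 33 tested members 14 were higher (42.4%), 3 lower (9.09%) and 16 did not pass the test (median 0.20). Over all genes tested 10.7% were higher and 8.01% lower. The filter admitted 4 of the 33 with a wild-type mean under 1 FPKM. Without it 10 of 43 were higher and 1 lower (23.3% and 2.33%, against 4.5% and 2.39% over all genes, median 0.13). The Notch targets Hes1, Dtx1 and Heyl were among the increases, while Ptcra, also in the list, fell (-2.22). Hes1 (mm9 chr16:30064470-30067882), a transcriptional repressor, was listed at 0.115, 0.259, 0.201, 0 and 0 FPKM in the wild type and at 25.5, 9.13 and 5.49 FPKM in the Bcl11bm/m replicates (3.44, standard error 0.36, adjusted p = 0.000107). Dtx1 (mm9 chr5:121130211-121161936), a ubiquitin ligase, was at 2.45, 2.12, 3.99, 0.833 and 1.12 FPKM and at 50.9, 21 and 17.7 FPKM (3.25, adjusted p = 0.000214). Heyl, a relative of Hes1, was at 0.0995 to 0.485 FPKM in the wild type and at 12.4, 9.12 and 6.76 FPKM in the Bcl11bm/m replicates (3.08, adjusted p = 4.37e-06). The receptor Notch1 rose by 1.28 (adjusted p = 0.0166, or 0.0668 and 0.05 without Bcl11bm/m replicates 1 and 2), from 16.2 to 46.9 FPKM in wild-type to 64.8 to 84.8 FPKM in Bcl11bm/m libraries.

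The other genes of late double-negative cells in this list went different ways. Il2ra (mm9 chr2:11564419-11614818), the IL-2 receptor alpha chain (CD25) of late double-negative cells, was at 4.33, 2.68, 3.57, 2.81 and 5.25 FPKM in the wild type and at 117, 38.7 and 33.5 FPKM in the Bcl11bm/m replicates (3.55, adjusted p = 7.89e-05). Nrgn, a calmodulin-binding protein, was at 0.151 to 0.896 FPKM and at 15.1, 8.67 and 11.7 FPKM (3.02, adjusted p = 1.37e-05). Cd44, the hyaluronan receptor of early and of activated T cells, was at 1.07 to 3.46 FPKM in wild-type and 16.3 to 17.5 FPKM in Bcl11bm/m libraries (2.69, adjusted p = 4.86e-05). By contrast Ptcra, which late double-negative cells express together with Il2ra, fell as given above. Igf1r, the insulin-like growth factor receptor, fell from 2.11 to 4.37 FPKM in wild-type to 0.807, 0.946 and 1.02 FPKM (-1.04, adjusted p = 0.00825).

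**Figure D3:**
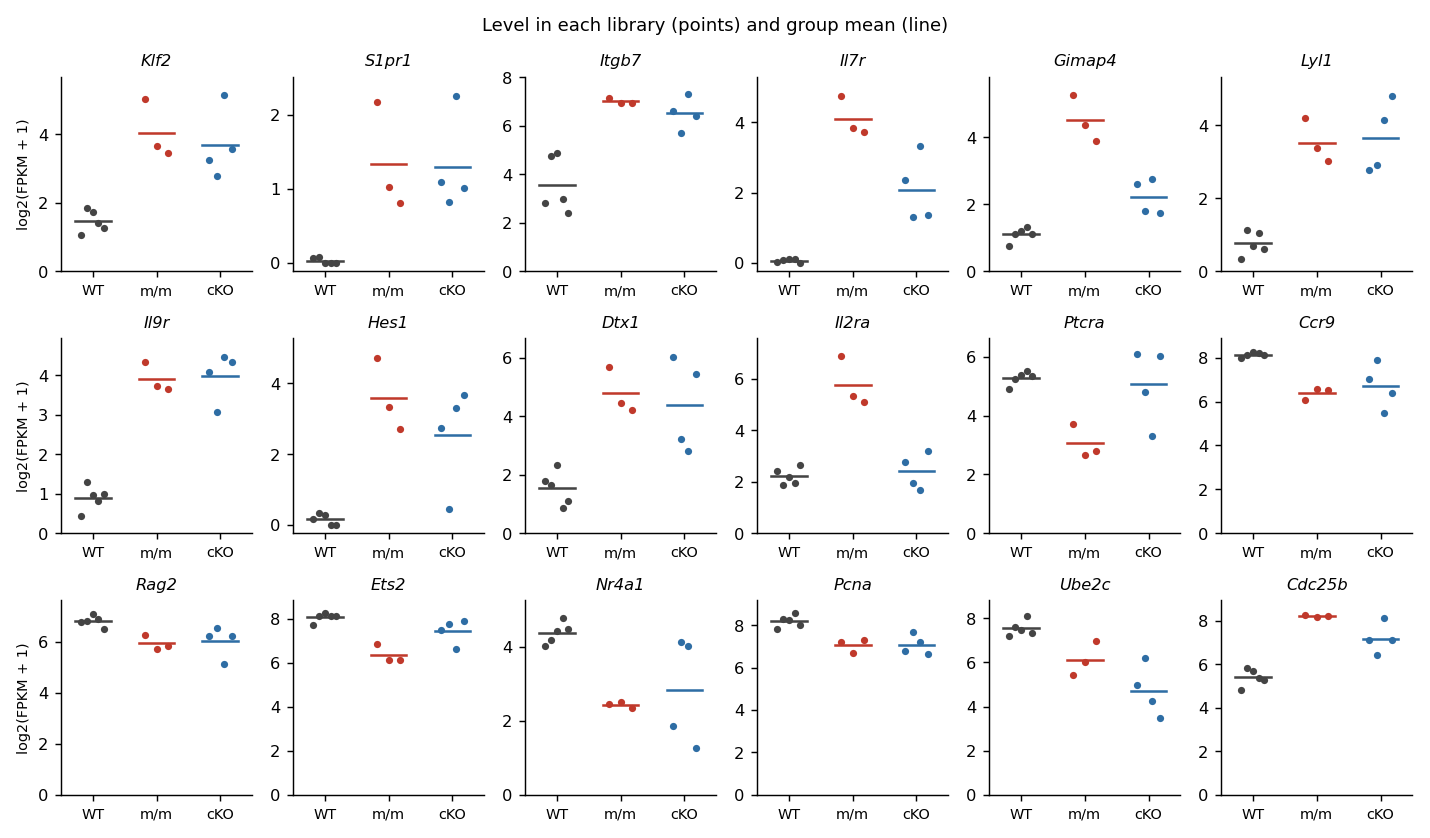
Each panel shows 1 of 18 genes with log2(FPKM + 1) on the y axis and 1 point for each wild-type (n = 5), Bcl11bm/m (n = 3, marked m/m) and Bcl11bfl/fl:Cd4-Cre (n = 4, marked cKO) library, and a line at the group mean. The panels run from genes of maturation and exit over progenitor and Notch genes to DP stage and cell cycle genes. Bcl11bm/m points lie above all wild-type points from Klf2 to Il2ra and for Cdc25b, and below them for Ptcra, Ccr9, Rag2, Ets2, Nr4a1, Pcna and Ube2c.

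Some transcription factors of the T lineage rose and fewer fell. Of 61 tested, 18 rose (29.5%), 6 fell (9.84%) and 37 did not pass the test. Over all genes tested 10.7% rose and 8.01% fell. The filter admitted 6 of the 61 with a wild-type mean under 1 FPKM. Without it 12 of 76 rose and 8 fell (15.8% and 10.5%, against 4.5% and 2.39% over all genes). Id2 (mm9 chr12:25778666-25780957), an inhibitor of E proteins that innate lymphoid cells need, was at 3.09, 3.33, 3.05, 5.25 and 4.15 FPKM in the wild type and at 37.3, 28.3 and 26.1 FPKM in the Bcl11bm/m replicates (2.73, standard error 0.19, adjusted p = 6.73e-06). Myc, the growth-promoting transcription factor, was at 7.13, 11.3, 10.2, 10.3 and 8.39 FPKM and at 54.4, 30.6 and 31.4 FPKM (1.89, adjusted p = 0.000173). Of 85 genes of ribosome biogenesis and other genes linked to MYC, 5 rose (5.88%) and 7 fell (8.24%), with a median of 0.06 (3 rose and 2 to 4 fell without any 1 Bcl11bm/m library or wild-type replicate 2 or 5), so this list did not share the direction of Myc. Foxo1, which drives Klf2 and Il7r in mature T cells, was at 7.49 to 13.4 FPKM in wild-type and 25.4 to 32.3 FPKM in Bcl11bm/m libraries (1.31, adjusted p = 0.000805). The Ikaros family gene Ikzf3 (Aiolos) had the largest decrease of these 61 genes, at 108, 100, 99.2, 47.6 and 141 FPKM in wild-type and 26.1, 21.9 and 21.4 FPKM in the Bcl11bm/m replicates (-1.98, adjusted p = 0.000805).

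Among 37 cytokine receptors 13 rose (35.1%), 6 fell (16.2%) and 18 did not pass the test, with a median of 0.29. Over all genes tested 10.7% rose and 8.01% fell. The filter admitted 6 of the 37 with a wild-type mean under 1 FPKM. Without it 14 of 65 rose and 6 fell (21.5% and 9.23%, against 4.5% and 2.39% over all genes), with a median of 0.08. The receptors that rose included those for IL-12, IL-18, IL-25 and interferon-γ. Il12rb2 (mm9 chr6:67241312-67326182), the signalling chain of the IL-12 receptor, was at 1.41, 2.94, 2.19, 1.24 and 2.76 FPKM in the wild type and at 42.1, 20.3 and 15.9 FPKM in the Bcl11bm/m replicates (3.04, adjusted p = 7.51e-05). Il18r1, of the IL-18 receptor, was at 0.173 to 0.334 FPKM and at 5.28, 5.99 and 4.98 FPKM (2.37, adjusted p = 3.03e-06). Il17rb, the receptor for IL-25, was at 7.88 to 8.97 FPKM in the wild type and at 33, 47.7 and 41.8 FPKM in the Bcl11bm/m replicates (2.15, adjusted p = 5.36e-06). Ifngr1 (mm9 chr10:19311755-19330035), the ligand-binding chain of the interferon-γ receptor, stood out by its level, with 189, 299, 304, 323 and 293 FPKM in wild-type and 852, 868 and 810 FPKM in the Bcl11bm/m replicates (1.60, adjusted p = 0.000366).

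Receptors that fell included Il4ra, which DP thymocytes use for IL-4 (27 to 48 FPKM in wild-type, 12.7 to 19.1 FPKM in Bcl11bm/m, -1.35, adjusted p = 0.00184). Il21r fell from 53.5 to 92.1 FPKM to 20.4 to 44.1 FPKM (-1.41, adjusted p = 0.00333). Tgfbr3, the TGF-β coreceptor betaglycan, was at 4.64 to 8.79 FPKM in the wild type and at 0.812, 0.745 and 0.605 FPKM in the Bcl11bm/m replicates (-1.99, adjusted p = 8.59e-05). Downstream of the receptors, 9 of 31 JAK, STAT and SOCS genes rose (29%, against 10.7% of all genes tested). The other 22 did not pass the test (3 fell without wild-type replicate 1). Jak3, the kinase of the common γ chain, rose from 4.33 to 6.79 FPKM to 13.3 to 22 FPKM (1.52, adjusted p = 0.000366). Stat4, the mediator of IL-12 signals, rose from 8.48 to 16.9 FPKM to 30.2 to 48.5 FPKM (1.38, adjusted p = 0.00204). Jak3 shares exon positions with Insl3 on the same strand.

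NK and cytotoxic effector genes were mostly too low to test. Of 61 listed genes, 18 passed the filter, 6 of them with a wild-type mean under 1 FPKM. Of these 18 genes 13 rose (72.2%), 1 fell (5.56%) and 4 did not pass the test (median 1.59), against 10.7% and 8.01% over all genes tested. Without the filter 10 of the 61 rose and 1 fell (16.4% and 1.64%, against 4.5% and 2.39% over all genes), with a median of 0.06. Gzma (mm9 chr13:113884033-113891187), the granule protease granzyme A, was at 16.4, 67.1, 46.1, 29.3 and 22.7 FPKM in the wild type and at 409, 202 and 217 FPKM in the Bcl11bm/m replicates (2.99, standard error 0.41, adjusted p = 0.00058). Cd160 (mm9 chr3:96602686-96633274), an inhibitory and NK receptor whose exons overlap Pdzk1 on the opposite strand, was at 0.111 to 0.433 FPKM and at 24.8, 19.2 and 12.8 FPKM (3.93, adjusted p = 8.43e-07). The signalling adapters Tyrobp (DAP12) and Fcer1g (FcRγ) rose from 0.397 to 2.07 FPKM to 21.2, 13.4 and 8.47 FPKM (2.71, adjusted p = 0.000189) and from 0.632 to 2.76 FPKM to 40.2, 10.1 and 8.83 FPKM (2.86, adjusted p = 0.00136). Both adapters are also myeloid genes. Among the newborn libraries both were highest in Bcl11bm/m replicate 1, the library with the highest myeloid sum, as were Cd160 and Gzma. In Bcl11bfl/fl:Cd4-Cre replicate 3 Fcer1g was at 42.2 FPKM and Tyrobp at 4.55 FPKM, with a myeloid sum of 85.7 FPKM. Of 36 myeloid markers 18 passed the filter, and of these 9 rose (50%) and 0 fell (5 rose without Bcl11bm/m replicate 1, and 4 of the 36 rose without the filter). Of 10 defining NK markers only Gzma and Klrb1c passed the filter, and 2 of the 10 were at 0 in every Bcl11bm/m library. Without both replicates numbered 1, 10 of the NK and cytotoxic genes rose and 1 fell. The member that fell was Lgals1, galectin-1, from 114 to 225 FPKM to 83.3, 61.7 and 61 FPKM (-1.36, adjusted p = 0.00261).

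Guidance and adhesion genes included members that rose and members that fell. Of 33 chemokine and lipid receptors 10 rose (30.3%), 6 fell (18.2%) and 17 did not pass the test. Of 39 integrins and adhesion molecules 14 rose (35.9%), 9 fell (23.1%) and 16 did not pass. Over all genes tested 10.7% rose and 8.01% fell. The filter admitted 8 of the 33 and 3 of the 39 with a wild-type mean under 1 FPKM. Without it 9 of 81 rose and 5 fell (median 0.05), and 15 of 83 rose and 7 fell (median 0.00). Over all genes 4.5% rose and 2.39% fell without it. Gpr25 (mm9 chr1:138155491-138157450), a G protein-coupled receptor of lymphocytes, was at 0.409, 1.93, 0.57, 0.694 and 0.936 FPKM in the wild type and at 111, 67.1 and 61.5 FPKM in the Bcl11bm/m replicates (5.41, adjusted p = 4.31e-07), and it overlaps a predicted gene on the opposite strand. Gpr183, which guides lymphocytes along oxysterols, was at 0.105 to 0.64 FPKM and at 7.34, 8.67 and 7.07 FPKM (2.70, adjusted p = 7.61e-06). In the other direction the prostaglandin E2 receptor Ptger4 was at 10.5, 17.1, 18.7, 18.7 and 16.2 FPKM in the wild type and at 2.46, 2.97 and 3.14 FPKM in the Bcl11bm/m replicates (-2.14, adjusted p = 4.37e-05). The ATP-gated channel P2rx1 was at 15.8 to 38.6 FPKM in the wild type and at 11.1, 2.92 and 2.74 FPKM in the Bcl11bm/m replicates (-2.17, adjusted p = 0.00444).

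Genes of integrin alpha chains were among those that rose and among those that fell. Itga9 (mm9 chr9:118515808-118810121) was at 0.347, 0.737, 0.516, 0.251 and 0.199 FPKM in the wild type and at 31.2, 26.6 and 26.1 FPKM in the Bcl11bm/m replicates (4.37, standard error 0.17, adjusted p = 9.29e-08), and Itga4 rose from 17.7 to 31.8 FPKM to 74.6 to 84.8 FPKM (1.5, adjusted p = 0.000414). Itga5, of a fibronectin receptor, and Itga6, of laminin receptors, fell. Itga5 (mm9 chr15:103174720-103197194) was at 3.35, 2.99, 2.71, 4.34 and 3.47 FPKM in the wild type and at 0.351, 0.116 and 0 FPKM in the Bcl11bm/m replicates (-1.92, adjusted p = 4.92e-05), and Itga6 fell from 15.8 to 26.4 FPKM to 4.47 to 6.55 FPKM (-1.58, adjusted p = 0.000244). Cldn4 (mm9 chr5:135420996-135422804), a claudin of tight junctions that DP thymocytes express, was at 14.2, 11.8, 7.94, 27.1 and 27.3 FPKM in the wild type and at 0, 1.81 and 0.734 FPKM in the Bcl11bm/m replicates (-3.32, adjusted p = 0.000366).

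T cell receptor signalling genes did not share a direction. Of 77 genes of the receptor complex and its proximal cascade, 11 rose (14.3%), 12 fell (15.6%) and 54 did not pass the test (median -0.03). Among all genes tested 10.7% rose and 8.01% fell. Without Bcl11bm/m replicate 1, 5 of the 77 rose and 8 fell, without replicate 2, 4 and 6, and without replicate 3, 6 and 7. The counts were 7 and 10 without wild-type replicate 2, and 13 and 19 without wild-type replicate 1. The second messenger arm had members in both directions, with Plcg1, phospholipase C γ1, from 46.8 to 58.4 FPKM to 102 to 115 FPKM (1.0, adjusted p = 0.000436), and the IP3 receptor Itpr1 from 13.5 to 21.8 FPKM to 8.31, 4.88 and 4.71 FPKM (-1.44, adjusted p = 0.000899). Spry2, an inhibitor of the RAS pathway, rose from 0.665 to 1.22 FPKM to 5.82, 8.62 and 7.27 FPKM (2.09, adjusted p = 2.17e-05). Of 40 immediate-early genes 6 rose (15%) and 10 fell (25%), or 7 and 16 without wild-type replicate 1. Jun rose from 1.43 to 3.44 FPKM to 10.6, 11.1 and 12.7 FPKM (2.0, adjusted p = 0.000112), while the ERK phosphatase Dusp4 fell from 2.25 to 10.8 FPKM to 0, 0.436 and 0.531 FPKM (-2.06, adjusted p = 0.00321). Of 51 NF-κB genes 11 rose (21.6%) and 4 fell (7.84%), while 8 fell without wild-type replicate 1 and 2 without Bcl11bm/m replicate 2 or 3. The subunit gene Nfkb1 rose from 17.6 to 25.8 FPKM to 56.3 to 82.9 FPKM (1.52, adjusted p = 0.000147).

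Costimulatory and checkpoint receptors included inhibitory receptors of opposite sign. Of 39 members 11 were higher (28.2%, against 10.7% of all genes tested) and 6 lower (15.4%, against 8.01%), or 3 lower without Bcl11bm/m replicate 2. Lag3 (mm9 chr6:124854379-124861723), an inhibitory receptor that binds MHC class II, was at 6.9, 10.1, 15, 10.8 and 10.8 FPKM in the wild type and at 76.1, 63.2 and 64 FPKM in the Bcl11bm/m replicates (2.58, adjusted p = 1.53e-05). Pdcd1 (PD-1) was at 2.76 to 3.28 FPKM in the wild type and at 0.846, 0.421 and 0.41 FPKM in the Bcl11bm/m replicates (-1.37, adjusted p = 0.000217). Slamf1, a homotypic receptor of DP thymocytes, was at 21.6 to 30.6 FPKM and at 6.91, 8.19 and 7.22 FPKM (-1.65, adjusted p = 3.63e-05).

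Among the 44 lists by function, mitosis and DNA replication genes had the most decreases. Of 94 mitosis genes 71 fell (75.5%), 2 rose and 21 did not pass the test (median -1.03). Of 91 DNA replication and G1/S genes 50 fell (54.9%), 1 rose and 40 did not pass the test (median -0.63). Among all genes tested 8.01% fell. The mean log2(FPKM + 1) of the mitosis genes was 4.60, 4.83, 4.53, 4.89 and 4.66 in wild-type replicates 1 to 5 and 3.21, 3.68 and 4.32 in Bcl11bm/m replicates 1 to 3. That of the replication genes was 4.17, 4.43, 4.24, 4.56 and 4.35 and then 3.60, 3.57 and 3.99. The groups did not overlap in either list, but Bcl11bm/m replicate 3 was close to wild-type and the 3 libraries differed widely among themselves. With no expression filter, which raises the genes tested to 22511, 19 of the 94 (20.2%) and 25 of 92 (27.2%) fell, against 2.39% of all genes. The medians were then -1.03 and -0.62. The counts of genes that fell were 38 and 28 without Bcl11bm/m replicate 1 and 34 and 23 without replicate 2, and without both replicates numbered 1 they were 58 and 39. An average of this kind does not tell a smaller share of dividing cells from less RNA per dividing cell.

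The promoters of these genes are shown for the sequence elements through which cell cycle genes are known to be controlled. Bub1b and Ccnf, of the mitosis list, are printed with the CHR element (TTTGAA or TTCGAA, either strand) in capitals, and E2f7 and Cdc6, of the replication list, with an E2F site (TTTGGCGC, TTTCGCGC, TTTCCCGC or TTTGGCGG, either strand) in capitals. Each is the 200 bases before the annotated start, 5′ to 3′ on the gene's strand, from RefSeq on GRCm38.p6: Ccnf chr17:24251410-24251609 (minus strand), Bub1b chr2:118598011-118598210 (plus), E2f7 chr10:110745239-110745438 (plus) and Cdc6 chr11:98907951-98908150 (plus).
Ccnf: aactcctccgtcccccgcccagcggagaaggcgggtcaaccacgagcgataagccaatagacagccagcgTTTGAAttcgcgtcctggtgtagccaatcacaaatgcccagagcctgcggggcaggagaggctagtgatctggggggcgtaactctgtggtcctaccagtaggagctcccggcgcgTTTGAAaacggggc
Bub1b: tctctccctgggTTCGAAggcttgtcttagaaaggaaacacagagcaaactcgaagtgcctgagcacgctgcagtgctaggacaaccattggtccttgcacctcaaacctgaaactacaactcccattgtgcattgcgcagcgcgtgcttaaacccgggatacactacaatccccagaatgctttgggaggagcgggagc
E2f7: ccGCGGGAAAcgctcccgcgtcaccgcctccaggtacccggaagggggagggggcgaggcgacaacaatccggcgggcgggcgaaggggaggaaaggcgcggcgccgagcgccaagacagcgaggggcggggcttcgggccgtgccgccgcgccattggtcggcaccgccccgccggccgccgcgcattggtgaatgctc
Cdc6: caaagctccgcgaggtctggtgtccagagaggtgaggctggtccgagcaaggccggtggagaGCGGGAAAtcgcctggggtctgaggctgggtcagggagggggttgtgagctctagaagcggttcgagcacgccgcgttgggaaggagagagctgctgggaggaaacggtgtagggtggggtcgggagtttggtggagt
In windows from 250 bases before to 50 after the start, a CHR match was found in 54 of the 74 mitosis genes that had a promoter in the table (73%), against 16.3% of 7569 tested genes and 19.2% of all 32841 promoters. An E2F match was found in 33 of 72 replication genes (45.8%), against 5.65% of tested genes and 2.37% of all promoters. Among the 250 genes with a promoter in the table that fell by more than 1, whatever their list, 26% held a CHR match and 6% an E2F match. A match describes the letters in a window and is not a measured binding site.

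Ccnf, cyclin F of G2 and mitosis, was at 30.8, 35.7, 28.7, 39.4 and 29.8 FPKM in the wild type and at 6.69, 10.5 and 17 FPKM in the Bcl11bm/m replicates (-1.53, standard error 0.24, adjusted p = 0.00143). Bub1b, of the spindle checkpoint, was at 37 to 45.3 FPKM and at 16, 17.1 and 29.8 FPKM (-1.05, adjusted p = 0.00357). Ube2c, the ubiquitin-conjugating enzyme of the anaphase-promoting complex, was at 144 to 272 FPKM and at 41.8, 62.9 and 123 FPKM (-1.42, adjusted p = 0.00963). In each of these Bcl11bm/m replicate 3 was the nearest to wild-type. E2f7, a repressor among the E2F factors, was at 4.13 to 7.03 FPKM in the wild type and at 0.416, 0.919 and 1.92 FPKM in the Bcl11bm/m replicates (-1.67, adjusted p = 0.000914), Cdc6, which loads the replicative helicase, at 7.63 to 13.7 FPKM and at 3.88, 3.02 and 5.23 FPKM (-1.15, adjusted p = 0.00333), and the sliding clamp Pcna at 224 to 378 FPKM and at 149, 102 and 157 FPKM (-1.12, adjusted p = 0.00432). The exceptions were few. Cdc25b (mm9 chr2:131012685-131024233), the phosphatase that activates CDK1, was at 27.2, 56.7, 51.3, 40.9 and 37.6 FPKM in the wild type and at 309, 293 and 296 FPKM in the Bcl11bm/m replicates (2.82, adjusted p = 1.20e-05), and Smc4, a condensin subunit, rose by 0.91 (adjusted p = 0.00168). In the replication list Cad, of pyrimidine synthesis, rose by 0.74 (adjusted p = 0.01).

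**Figure D4:**
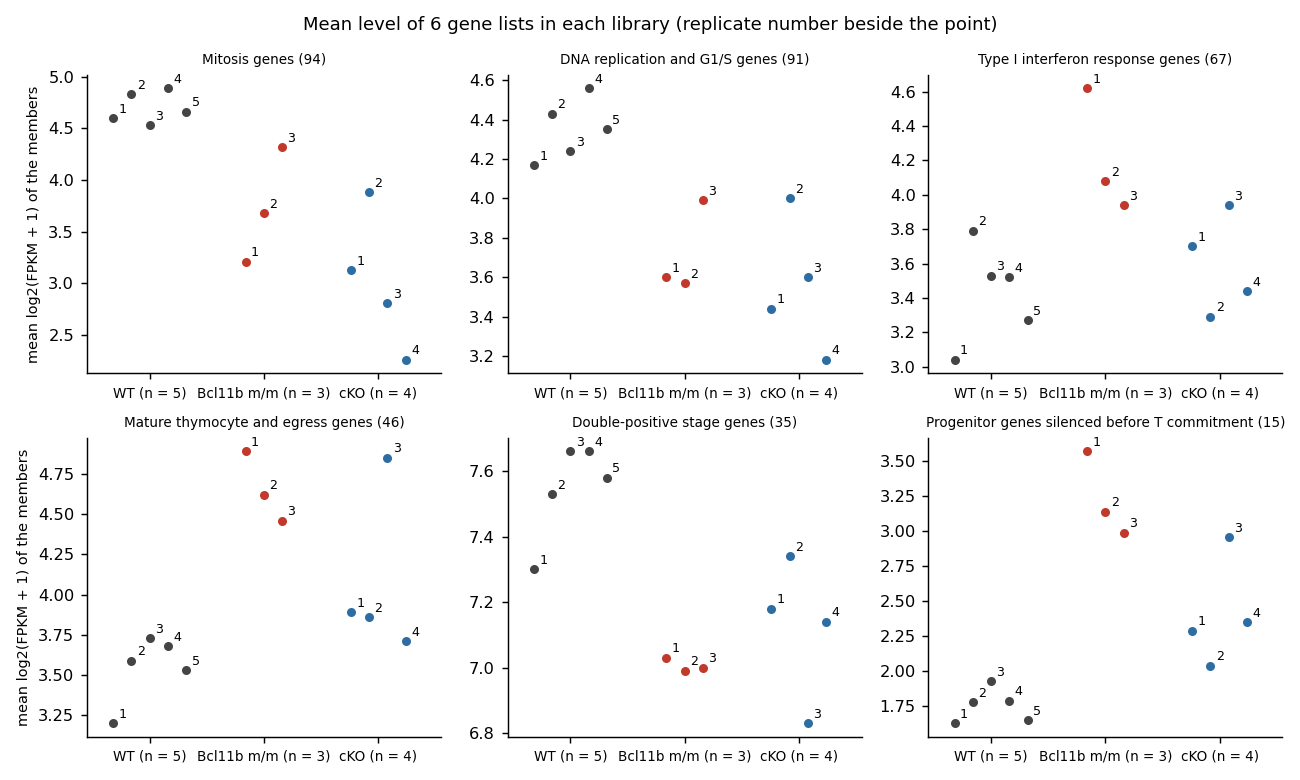
Each panel gives the mean log2(FPKM + 1) over the tested members of 1 of 6 lists in every library, with wild-type (n = 5), Bcl11bm/m (n = 3) and Bcl11bfl/fl:Cd4-Cre (cKO, n = 4) from left to right and the replicate number beside each point. Wild-type and Bcl11bm/m libraries do not overlap in any of the 6 lists. For mitosis genes the Bcl11bm/m libraries run from 3.21 to 4.32, and for interferon genes from 3.94 to 4.62 with replicate 1 highest.

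Interferon response genes rose without an exception among those that passed the test. Of 67 genes, 32 rose (47.8%, against 10.7% of all genes tested), 0 fell and 35 did not pass the test (median 0.73). Without the expression filter 14 of 77 rose (18.2%, against 4.5% of all genes) and 0 fell (median 0.61). Their mean log2(FPKM + 1) was 3.04, 3.79, 3.53, 3.52 and 3.27 in wild-type and 4.62, 4.08 and 3.94 in Bcl11bm/m replicates. Replicate 1 was the highest, as it was for the myeloid and MHC class II sums. Without it 20 genes rose, and without both replicates numbered 1, 24 rose and 2 fell (median 0.42), so that part of the count rested on these libraries. Ifi203, of the interferon-inducible p200 family, a gene that shares exon positions with Mndal, was at 15.7, 15.7, 17, 9.89 and 9.47 FPKM in the wild type and at 91.9, 44.9 and 41.9 FPKM in the Bcl11bm/m replicates (2.0, adjusted p = 0.000693). Irf7, the interferon regulatory factor that amplifies the response, was at 2.81 to 10.7 FPKM and at 36.8, 21.2 and 13.7 FPKM (1.76, adjusted p = 0.00689).

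Slfn5 and Gbp7 are shown with the part of their promoter that holds the response element. Slfn5, a Schlafen family gene, was at 7.48 to 12.9 FPKM in the wild type and at 36.9, 26.8 and 24.8 FPKM in the Bcl11bm/m replicates (1.38, adjusted p = 0.000643), and the guanylate-binding protein gene Gbp7 at 4.89 to 9.83 FPKM and at 27.7, 19.6 and 18 FPKM (1.53, adjusted p = 0.000979). The capitals mark GAAANNGAAA on either strand, the core of the interferon-stimulated response element, in the 200 bases before the start (RefSeq, GRCm38.p6, both on the plus strand): Slfn5 chr11:82951902-82952101 and Gbp7 chr3:142530136-142530335.
Slfn5: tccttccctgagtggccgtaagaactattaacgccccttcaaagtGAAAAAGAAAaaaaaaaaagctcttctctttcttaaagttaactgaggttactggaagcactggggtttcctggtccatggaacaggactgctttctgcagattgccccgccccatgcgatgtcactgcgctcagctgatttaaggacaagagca
Gbp7: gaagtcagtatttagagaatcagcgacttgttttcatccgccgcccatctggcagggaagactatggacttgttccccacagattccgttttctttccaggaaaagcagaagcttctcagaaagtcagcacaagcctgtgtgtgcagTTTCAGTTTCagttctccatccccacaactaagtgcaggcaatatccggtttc
This element was found in 23 of 49 interferon genes with a promoter in the table (46.9%), against 3.78% of tested genes and 3.44% of all promoters. Among the 458 genes with a promoter in the table that rose by more than 1, whatever their list, 8.52% held it.

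MHC class I genes followed, with 12 of 42 presentation genes higher (28.6%) and 2 lower (4.76%), against 10.7% and 8.01% of all genes tested (median 0.42). Without the expression filter 5 of 44 were higher (11.4%) and 1 lower (2.27%), against 4.5% and 2.39%. B2m, the invariant light chain, was at 297, 716, 829, 564 and 367 FPKM in the wild type and at 2544, 1070 and 998 FPKM in the Bcl11bm/m replicates (1.43, standard error 0.40, adjusted p = 0.031, or 0.128 without Bcl11bm/m replicate 1, 0.0517 without replicate 2, and 0.0505 and 0.0769 without wild-type replicates 4 and 5). H2-K1 was at 12.9, 48.1, 50, 23.8 and 16.7 FPKM and at 236, 93.4 and 80.3 FPKM (2.16, adjusted p = 0.00933), and Nlrc5, the transactivator of class I genes, at 0.575 to 2.68 FPKM and at 9.81, 4.78 and 3.85 FPKM (1.58, adjusted p = 0.00906). Bcl11bm/m replicate 1 was well above the other Bcl11bm/m libraries for all 3 genes, and H2 genes share sequence, so their reads may be split among copies. Without Bcl11bm/m replicate 1, 7 class I genes rose and 1 fell, and without both replicates numbered 1, 10 rose and 5 fell, with a median of 0.04. The MAIT cell ligand Mr1 was one of the exceptions, from 59.6 to 78.9 FPKM to 43.4, 32.7 and 36.7 FPKM (-0.87, adjusted p = 0.0024).

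Some genes of cyclic nucleotide enzymes and ion channels changed, in either direction. Among 46 cyclic nucleotide genes 11 rose (23.9%), 6 fell (13%) and 29 did not pass the test. Over all genes tested 10.7% rose and 8.01% fell. The cyclic nucleotide counts were 6 and 4 without Bcl11bm/m replicate 2, and 7 rose without Bcl11bm/m replicate 3 or wild-type replicate 2. Pde2a (mm9 chr7:108570212-108661340), a phosphodiesterase that cyclic GMP activates, was listed at 0.0373, 0.0839, 0.065, 0.507 and 0 FPKM in the wild type and at 50.3, 52.3 and 56.6 FPKM in the Bcl11bm/m replicates (5.59, standard error 0.17, adjusted p = 2.07e-08). Pde3b rose from 7.43 to 11.8 FPKM to 33.2 to 38.6 FPKM (1.79, adjusted p = 5.12e-05) and Pde4b from 10.4 to 16.9 FPKM to 34.9 to 45.1 FPKM (1.58, adjusted p = 0.000111), while Pde4d fell from 15.8 to 18.8 FPKM to 7.47 to 8.96 FPKM (-1.03, adjusted p = 0.000459). Of 64 ion channel genes 10 rose (15.6%), 11 fell (17.2%) and 43 did not pass the test. Without the filter 12 of 235 rose and 8 fell (5.11% and 3.4%, against 4.5% and 2.39% over all genes). Scn4b, a beta subunit of voltage-gated sodium channels, was at 2.88 to 16.4 FPKM in the wild type and at 0, 0.0599 and 0.117 FPKM in the Bcl11bm/m replicates (-2.98, adjusted p = 0.00152). The potassium channel Kcnh2 (mm9 chr5:23825407-23857422) was at 18.4 to 25.4 FPKM and at 2.91, 2.53 and 2.11 FPKM (-2.65, adjusted p = 1.61e-06).

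Metabolic and housekeeping lists had few or balanced calls, with single genes that stood out. Of 84 cytosolic ribosomal protein genes 1 rose and 0 fell (median -0.21), and of 79 respiratory chain genes 0 rose and 2 fell (median -0.30). These counts depended on the replicates numbered 1, since without both of them 33 ribosomal protein and 43 respiratory chain genes fell, and without wild-type replicate 1 alone 2 and 23. Of 42 glycolysis genes 5 rose and 5 fell (11.9% each), and of 56 cholesterol and fatty acid genes 9 rose and 7 fell (16.1% and 12.5%). Of 52 apoptosis regulators 5 rose and 7 fell (9.62% and 13.5%), and of 63 recombination and DNA repair genes 4 rose and 5 fell (6.35% and 7.94%). Most of these shares were near those over all genes tested, 10.7% and 8.01%. Leaving out Bcl11bm/m replicate 2 or 3 moved the glycolysis, fatty acid and apoptosis counts to between 5 and 10 in all. Without Bcl11bm/m replicate 1, 3 glycolysis and 3 cholesterol and fatty acid genes rose, without wild-type replicate 4, 5 of the latter rose, and 9 glycolysis genes fell without wild-type replicate 1 and 3 without replicate 5. The repair genes gave 2 and 3 without Bcl11bm/m replicate 1, 3 and 3 without replicate 2, and 6 and 8 without wild-type replicate 1. Ldhb (mm9 chr6:142438769-142456477), the lactate dehydrogenase B chain, was at 247, 261, 310, 474 and 356 FPKM in the wild type and at 27.6, 78 and 69.3 FPKM in the Bcl11bm/m replicates (-2.57, adjusted p = 0.000385). Idh2, a mitochondrial isocitrate dehydrogenase, fell from 49.9 to 117 FPKM to 30, 17 and 18.1 FPKM (-1.83, adjusted p = 0.000789). In fatty acid synthesis, Fasn rose from 11.2 to 20.9 FPKM to 40 to 43.8 FPKM (1.36, adjusted p = 0.000785) and the desaturase gene Fads2 from 8.26 to 17.4 FPKM to 46.4 to 54.2 FPKM (2.11, adjusted p = 7.01e-05). Xrcc6 (Ku70), a subunit of the end-joining complex that completes V(D)J recombination, was at 207 to 318 FPKM in the wild type and at 949, 674 and 676 FPKM in the Bcl11bm/m replicates (1.44, adjusted p = 0.000801).

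Some of the largest changes belonged to no group above. Tmem173 (STING), the adapter of cytosolic DNA sensing, was at 0.684, 6.85, 5.49, 5.11 and 5.25 FPKM in the wild type and at 99.1, 119 and 112 FPKM in the Bcl11bm/m replicates (4.45, standard error 0.42, adjusted p = 5.12e-05). Trf, which encodes the iron carrier transferrin, was at 0.135 to 1.37 FPKM and at 53.5, 43.6 and 43 FPKM (4.87, adjusted p = 4.31e-07). Lmo4, a LIM-only transcriptional adapter, rose from 34.6 to 55.5 FPKM to 383, 247 and 190 FPKM (2.59, adjusted p = 3.36e-05). Decreases of abundant genes included Cd52 (mm9 chr4:133638363-133650997), a small surface glycoprotein of lymphocytes, at 180, 349, 484, 545 and 370 FPKM in the wild type and at 48.8, 51 and 47.3 FPKM in the Bcl11bm/m replicates (-2.86, adjusted p = 0.000114). Gtf2h4 (mm9 chr17:35804675-35810684), a TFIIH subunit, was at 79.3, 67.6, 69.1, 161 and 149 FPKM and at 13.2, 13.2 and 12.9 FPKM (-2.81, adjusted p = 0.000104). Gtf2ird1 (mm9 chr5:134833539-134932581), a TFII-I family factor, was at 29.3 to 37.7 FPKM and at 2.41, 2.15 and 3.73 FPKM (-3.19, adjusted p = 8.43e-07). The 3 Bcl11bm/m libraries were nearly equal for Cd52 and Gtf2h4. Wild-type replicates 4 and 5 lay above the other wild-type libraries for Gtf2h4, as they did for Cldn4 and Cd5, but all 5 were above every Bcl11bm/m library. These 2 wild-type libraries are the ones with Y-linked RNA. Against Bcl11bm/m replicates 2 and 3, which also have it, all 3 genes were lower at the threshold.

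Which of these changes Bcl11bfl/fl:Cd4-Cre thymocytes lacked was examined by comparing Bcl11bm/m libraries with both other groups. Both comparisons with wild-type use the same 5 wild-type libraries, and the genotypes also differ in the allele, the time of deletion and perhaps age, which cannot be told apart. In the direct comparison of the mutants 1240 genes (11.7%) differed, 933 higher (8.8%) and 307 lower (2.9%) in Bcl11bm/m. That balance depended on scaling, with 619 higher and 585 lower under median-ratio scaling and 608 and 628 after quantile normalization. Bcl11bm/m thymocytes differed from both other groups in the same direction in 614 genes (5.79%), 449 higher (4.24%) and 165 lower (1.56%). These were 386 and 281 under median-ratio scaling and 383 and 313 after quantile normalization. In 504 of the 614 genes (4.76% of all tested) the Bcl11bfl/fl:Cd4-Cre libraries did not differ from wild-type at the threshold. The count of 614 was 256 without Bcl11bm/m replicate 3, 263 without replicate 2 and 346 without Bcl11bfl/fl:Cd4-Cre replicate 1.

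Progenitor genes and receptors were among them. Cd93 was at 1.42, 1.42, 1.91 and 1.49 FPKM in the Bcl11bfl/fl:Cd4-Cre replicates 1 to 4, within the wild-type range, so that Bcl11bm/m libraries were higher by 2.84 (adjusted p = 7.92e-05). Flt3, at 0.132 to 0.872 FPKM, and Kit, at 0.238 to 0.735 FPKM, were also lower there than in Bcl11bm/m libraries (differences 1.98 and 1.41, adjusted p = 0.00334 and 0.00237). Il2ra was at 5.82, 2.87, 2.19 and 8.18 FPKM (difference 3.37, adjusted p = 0.00537). Lag3 was at 5.14 to 7.97 FPKM (3.33, adjusted p = 7.92e-05) and Ifngr1 at 273 to 377 FPKM (1.31, adjusted p = 0.00256). Not all progenitor genes behaved this way. Lyl1 was at 5.79, 6.6, 16.8 and 27 FPKM and Il9r at 15.8, 7.38, 20.9 and 19.2 FPKM in the Bcl11bfl/fl:Cd4-Cre libraries, which differed from Bcl11bm/m by -0.14 (adjusted p = 0.883) and -0.09 (adjusted p = 0.887).

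Of the 67 interferon genes, 14 were higher in Bcl11bm/m than in both other groups, as were 4.24% of all genes tested. In Bcl11bfl/fl:Cd4-Cre against wild-type 2 of the 67 rose and 1 fell (5.12% and 10.7% over all genes tested). Ifi203 was at 24, 14.5, 21.1 and 14.1 FPKM in the Bcl11bfl/fl:Cd4-Cre libraries (difference 1.58, adjusted p = 0.0134) and Gbp7 at 7.29 to 11 FPKM (1.14, adjusted p = 0.00718). Genes that were higher than in both groups differed in their level elsewhere. Fndc1 (mm9 chr17:7931434-8020167), a fibronectin type III domain gene, was listed at 0, 0.0286, 0, 0 and 0 FPKM in the wild type, at 20.7, 13.4 and 11.3 FPKM in Bcl11bm/m and at 0.0615, 0.0322, 0.211 and 0.013 FPKM in the Bcl11bfl/fl:Cd4-Cre libraries. Gpr25 was at 1.51 to 4.02 FPKM in the Bcl11bfl/fl:Cd4-Cre libraries (difference 4.55, adjusted p = 0.000112). The tetraspanin gene Tspan2 was at 12.2 to 28.4 FPKM in wild-type, 107, 107 and 106 FPKM in Bcl11bm/m and 19.3 to 42.9 FPKM in the Bcl11bfl/fl:Cd4-Cre libraries (difference from the latter 1.68, adjusted p = 0.00531).

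Decreases against both groups included several genes already named. Ldhb was at 251, 267, 184 and 332 FPKM in the Bcl11bfl/fl:Cd4-Cre libraries, near wild-type (difference of Bcl11bm/m -2.23, adjusted p = 0.00718). Cldn4 was at 9.22 to 17.5 FPKM (-3.02, adjusted p = 0.00256), Itga5 at 2.79 to 4.34 FPKM (-1.95, adjusted p = 0.000877) and Itpr1 at 13.7 to 22.3 FPKM (-1.43, adjusted p = 0.00612). Gtf2h4 was at 60.9, 78.3, 38.1 and 80 FPKM (-2.15, adjusted p = 0.00176). Art1, an ADP-ribosyltransferase, was at 4.13 to 11.5 FPKM in the wild type, at 0.602, 0.2 and 0.195 FPKM in Bcl11bm/m and at 5.53 to 10.9 FPKM in the Bcl11bfl/fl:Cd4-Cre libraries (-2.80, adjusted p = 0.000516).

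**Figure D5:**
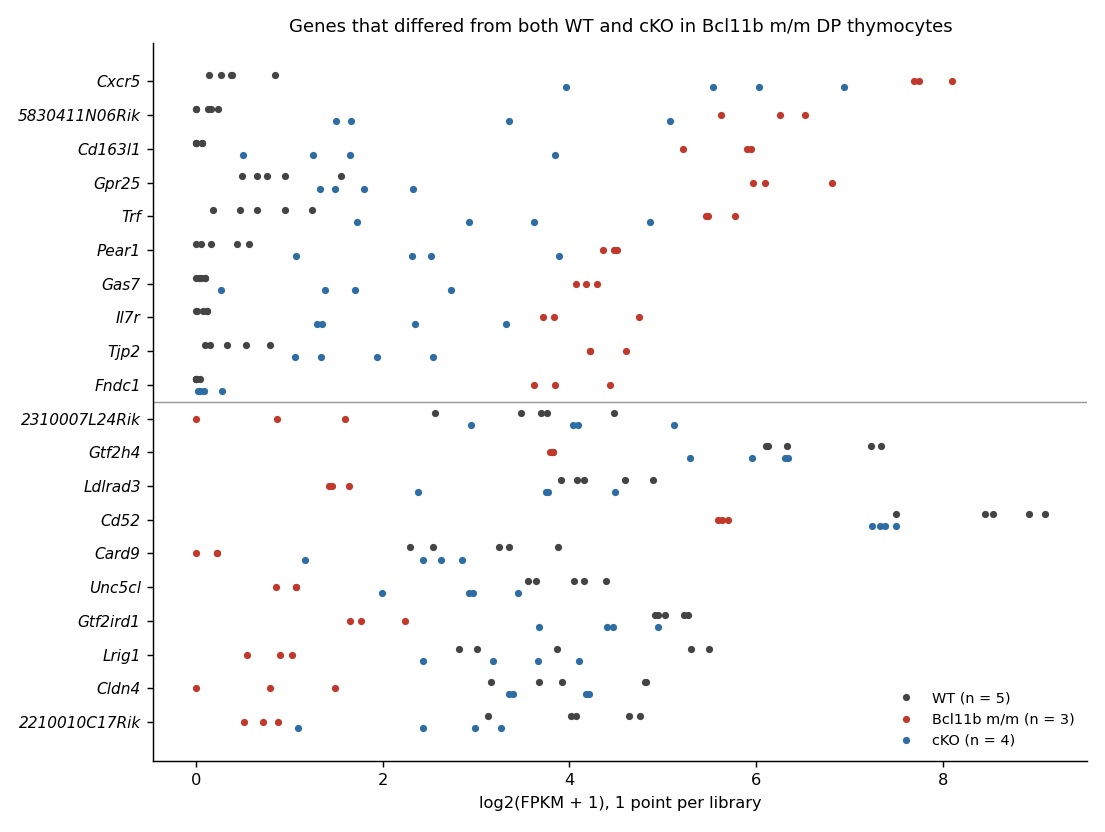
Points give log2(FPKM + 1) in each wild-type (dark, n = 5), Bcl11bm/m (red, n = 3) and Bcl11bfl/fl:Cd4-Cre (cKO, blue, n = 4) library for the 10 largest increases (above the line) and 10 largest decreases (below it) of Bcl11bm/m against wild-type among genes that also differed from Bcl11bfl/fl:Cd4-Cre without overlap. Blue points lie between the other groups for Cxcr5, Trf, Pear1 and Il7r, and near wild-type for Fndc1, Cldn4 and 2310007L24Rik.

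Cell cycle genes were also lower in Bcl11bfl/fl:Cd4-Cre than in wild-type libraries, with 91 of the 94 mitosis genes and 66 of the 91 replication genes past the threshold (10.7% of all genes tested were lower). Mitosis genes had a median of -1.74 in Bcl11bfl/fl:Cd4-Cre and -1.03 in Bcl11bm/m against the same wild-type libraries, and replication genes -0.83 and -0.63. Their mean log2(FPKM + 1) was 3.13, 3.88, 2.81 and 2.26 for mitosis genes in Bcl11bfl/fl:Cd4-Cre replicates 1 to 4, which overlaps the Bcl11bm/m range. Maturation genes had medians of 0.36 and 0.93, and DP stage genes -0.40 and -0.32. Klf2 was at 8.55, 5.92, 34.8 and 10.8 FPKM and S1pr1 at 1.14, 0.772, 3.76 and 1.02 FPKM in the Bcl11bfl/fl:Cd4-Cre libraries, and both overlapped the Bcl11bm/m libraries.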

How the data were processed

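The authors sorted DP thymocytes, sequenced their RNA and, per the labels, mapped reads to mm9 with TopHat2 2.8.0 (listed so in the submitters' processing notes) and used Cufflinks 2.1.1 for FPKM values of each gene in each library. One deposited table of FPKM holds 23234 rows for 12 libraries, all columns of which were mapped to a sample. A scaling between libraries is not stated, and the labels and the study's methods name different library kits, so strandedness is uncertain. FPKM depends on the other genes of a library, and a listed 0 can be a failed estimate.

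From these values log2(FPKM + 1) was computed, so that fold changes understate those of low genes. The 723 short RNA rows (names starting with Mir, Snord, Snora or Scarna) were left out, and 10598 genes whose mean over the 12 libraries reached 1 FPKM were fitted. Groups were compared 2 at a time with limma 3.58.1 in R 4.3.3 (lmFit, eBayes with trend), two-sided, with Benjamini-Hochberg adjustment over all 10598 genes and a threshold of 0.05. The script was tested on simulated data. Bcl11b, Zbtb7b and Runx3 were also tested by exact permutation over all 56 assignments of the genotypes to the libraries.

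The members and the 44 lists by function and 9 marker lists were chosen with earlier results of these data known. Genes named were the 20 largest increases and decreases without overlap, the 12 largest among genes of at least 50 FPKM, the 10 largest that also differed from Bcl11bfl/fl:Cd4-Cre, up to 5 members of each list with the smallest adjusted p and its members changed by at least 1, and the defining members of lists. The text gives a selection of these 474 genes, and says where a gene outside the rule is named. Zbtb7b, Runx3 and Cxcr5 are not described in detail here. Positions are those of GENCODE vM1 on mm9, matched by symbol, and promoters those of RefSeq on GRCm38.p6. Alternatives were a pseudocount of 0.1, no filter, a filter of 5 FPKM, median-ratio scaling, quantile normalization, one fit of all groups, the replicate number as a block, library quality weights, the short RNA rows kept, each library left out, and, chosen after seeing the data, both replicates numbered 1 left out and the libraries with Y-linked RNA alone (over 1 FPKM of Ddx3y and of Eif2s3y). Tables and figures were made in Python 3.11.15 (pandas 2.3.3, numpy 2.4.6; figures, matplotlib 3.10.9).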

Additional observations from a re-analysis of the deposited data

Results flagged for a closer look

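A library lay far from the rest of its group in 19 of 238 groups of 4 or 5 libraries, over the genes named here and 6 lists, where chance gives about 1 in 20 groups. Of the 19, 6 were wild-type replicate 1 and 5 were Bcl11bfl/fl:Cd4-Cre replicate 3. Wild-type replicate 1 was low for Ets2 (209 FPKM, others 274 to 300), Ifngr1 (189 FPKM, others 293 to 323), Nfkb1 (17.6 FPKM, others 23.3 to 25.8), Ptger4 (10.5 FPKM, others 16.2 to 18.7), Tdrd5 (34.3 FPKM, others 41.9 to 45.4) and Tmem173 (0.684 FPKM, others 5.11 to 6.85), genes of which some rose and some fell in Bcl11bm/m. Bcl11bfl/fl:Cd4-Cre replicate 3 was high for Cd93 (1.91 FPKM, others 1.42 to 1.49), Flt3 (0.872 FPKM, others 0.132 to 0.226), Lag3 (7.97 FPKM, others 5.14 to 5.28) and the mean level of the mature thymocyte and egress genes (4.85 on the log2 scale, others 3.71 to 3.89), and low for Slamf1 (13.3 FPKM, others 22.5 to 25). Cd8b1 was at 1466 FPKM in Bcl11bfl/fl:Cd4-Cre replicate 2 (others 1039 to 1072). The other wild-type values of this kind were Bub1b (37 FPKM in replicate 3), Errfi1 (5.51 FPKM in replicate 2), Itga4 (17.7 FPKM in replicate 4, others 29.8 to 31.8), Pde2a (0.507 FPKM in replicate 4), Zbtb7b (0.215 FPKM in replicate 3), Fndc1 (0.0286 FPKM in replicate 2, others listed at 0) and LOC100302567 (listed at 0 in replicate 3, others 173 to 233).

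Fads2 and Lag3 changed in opposite directions in the 2 mutants, which share their wild-type libraries. Fads2 rose by 2.11 in Bcl11bm/m (adjusted p = 7.01e-05) and was lower in Bcl11bfl/fl:Cd4-Cre libraries (4.26 to 8.15 FPKM, log2 fold change -0.82, adjusted p = 0.0329), and the direct difference was 2.93 (adjusted p = 0.000272). Lag3 rose by 2.58 in Bcl11bm/m (adjusted p = 1.53e-05) and was lower in Bcl11bfl/fl:Cd4-Cre libraries (log2 fold change -0.75, adjusted p = 0.0275), with a direct difference of 3.33 (adjusted p = 7.92e-05).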

How the results depend on the processing

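No gene called between Bcl11bm/m and wild-type was called in the opposite direction under any of the 19 settings tried, and 78 of the 111 called genes printed kept their call under all of them in which they were tested. The count of 1979 genes was 1272 with a filter of 5 FPKM and 3825 with library quality weights, and between 1263 and 2571 when 1 library was left out. Against Bcl11bfl/fl:Cd4-Cre the count of 1240 was 788 without a filter, 755 with 5 FPKM, 2359 with weights, and 414 to 1313 with 1 library left out (414 without Bcl11bm/m replicate 3, 496 without replicate 2, 538 without Bcl11bfl/fl:Cd4-Cre replicate 1). Bcl11bfl/fl:Cd4-Cre against wild-type gave 1677 genes, 861 without a filter, 3287 with weights, and 869 to 2843 with 1 library left out (leaving out wild-type replicate 1 gave 2843 and replicate 5 gave 991, and Bcl11bfl/fl:Cd4-Cre replicates 1, 3 and 4 gave 869, 970 and 922). Of these, 543 were higher and 1134 lower, against 868 and 1001 under median-ratio scaling and 897 and 1082 under quantile normalization. The 614 genes that differed from both were 333 without a filter, 317 with 5 FPKM, 1305 with weights and 256 to 791 with 1 library left out. The filters also change how many genes are tested. For the other changes the cause was not tested.

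With both replicates numbered 1 left out, a setting chosen after seeing the data, 2627 genes were called, 1070 higher and 1557 lower, and the median of all genes moved from -0.02 to -0.11. Between the libraries with Y-linked RNA alone, also chosen after seeing the data, 2145 genes were called, and 107 of the 111 called genes printed were among them in the same direction. Bcl11b differed by 0.94 to 1.22 with 1 library left out, with exact permutation p up to 0.0952.

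The replicate numbers are shared by the groups but the labels do not say that they pair libraries, and deviations of same-numbered wild-type and Bcl11bm/m libraries correlated at -0.297, -0.0923 and -0.175. With the replicate number as a block the counts were 660 (Bcl11bm/m against wild-type), 312 (against Bcl11bfl/fl:Cd4-Cre), 1035 (Bcl11bfl/fl:Cd4-Cre against wild-type) and 181 (both).

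Depth is an estimate from the values and was lowest in Bcl11bm/m replicate 1, and no counting limit is given for values near 0. Averages over sorted cells cannot tell a change in every cell from a change in the share of cells. The labels do not give the sex or litter of the mice, and the levels of Xist and Y-linked genes differed within each group.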
